A study of Mus musculus with 670 samples.

Results

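The collagens of cartilage are described here through 8 genes, taken by name from the 55604 gene rows of the expression table: Col2a1, Col9a1, Col9a2, Col9a3, Col10a1, Col11a1, Col11a2 and Col27a1. Single cells sorted by flow cytometry from the long bones of male mice were each sequenced with SmartSeq2, a protocol that reads whole transcripts, without culture or treatment. The labels call them skeletal stem cells and do not name the antibodies of the sort. The cells came from mice of 3 ages, postnatal day 3 (plate 9, batch 3), 2 months (plates 1, 3 and 4, from batches 4, 5 and 1) and 24 months (plates 2, 5 and 12, from batches 3, 2 and 3). No genotype, strain or animal was labelled, so an age counted as 1 sample, no p-value could be given, and age and animal cannot be told apart.

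Collagen II, made of the Col2a1 chain, forms the fibrils of hyaline cartilage together with collagen XI, whose Col11a1 and Col11a2 chains set the core of the fibril, and collagen IX, a trimer of the Col9a1, Col9a2 and Col9a3 chains that sits on the fibril surface. Collagen X (Col10a1) is a short network-forming collagen made by hypertrophic chondrocytes, the enlarged cells at the end of the growth plate. Collagen XXVII (Col27a1) is a fibrillar collagen of cartilage in which the proliferating zone passes into the hypertrophic zone.

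Cells with fewer than 1000 genes, fewer than 50000 gene reads or 20% or more mitochondrial reads were left out. This kept 68 of 95 wells at postnatal day 3, then 15, 70 and 69 cells on plates 1, 3 and 4 of 2 months, and 5 cells on each plate of 24 months, 15 in all. The passing cells of 24 months held 1131874 to 5994911 gene reads but 1001 to 2294 genes. Over all wells, passing or not, the median share of spike-in reads was 97.5% at 24 months, 5.88% at postnatal day 3 and 12.1% at 2 months, and 76% on plate 1 of 2 months, where 15 of 96 wells passed. Summed markers of blood (8 genes) and endothelium (6 genes) reached at most 23.8 and 4.80 CPM (counts scaled to 1000000 gene reads of a plate) and had no read at 24 months. With no sort marker named, the label could be set only against tissue genes: Cnmd (chondromodulin, a protein of avascular cartilage) was read in 42 of 68 cells of postnatal day 3, in 7, 52 and 53 cells of the 2-month plates and in 0 of 15 cells of 24 months.

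The 8 genes lie on 7 chromosomes (GRCm38, GENCODE annotation): Col9a1 on chromosome 1 at 24177610 to 24252684, Col9a3 on chromosome 2 at 180597790 to 180622189, Col11a1 on chromosome 3 at 114030540 to 114220718, Col9a2 and Col27a1 on chromosome 4 at 121039385 to 121055322 and 63214004 to 63334991, Col10a1 on chromosome 10 at 34389981 to 34397085, Col2a1 on chromosome 15 at 97975602 to 98004695 and Col11a2 on chromosome 17 at 34039437 to 34066685. Col2a1 lies on the minus strand and the others on the plus strand. RefSeq promoter sequence was at hand for 6 of the 8 genes, and not for Col2a1 and Col9a3. The 250 bases before the start are shown for 4 of them, because Col10a1 was read in 6 passing cells while the collagen IX and XI genes were read in most cells of postnatal day 3 and 2 months. They lie on the plus strand of GRCm38.p6 at chr10:34389731-34389980, chr1:24177360-24177609, chr3:114030290-114030539 and chr17:34038888-34039137, in the order given, and capitals mark a matched motif.
Col10a1 promoter: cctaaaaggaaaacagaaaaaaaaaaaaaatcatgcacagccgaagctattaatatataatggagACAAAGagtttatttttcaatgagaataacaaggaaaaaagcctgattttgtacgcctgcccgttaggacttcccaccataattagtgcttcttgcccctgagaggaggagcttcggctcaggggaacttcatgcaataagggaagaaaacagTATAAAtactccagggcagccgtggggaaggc
Col9a1 promoter: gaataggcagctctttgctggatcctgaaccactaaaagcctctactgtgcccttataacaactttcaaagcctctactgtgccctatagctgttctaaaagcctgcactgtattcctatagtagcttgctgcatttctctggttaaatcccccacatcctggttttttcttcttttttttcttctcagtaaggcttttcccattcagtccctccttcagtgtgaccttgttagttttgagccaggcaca
Col11a1 promoter: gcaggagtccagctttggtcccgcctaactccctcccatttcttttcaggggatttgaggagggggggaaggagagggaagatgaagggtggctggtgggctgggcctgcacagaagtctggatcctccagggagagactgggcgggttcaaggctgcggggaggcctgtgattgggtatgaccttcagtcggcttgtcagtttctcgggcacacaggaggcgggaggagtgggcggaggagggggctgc
Col11a2 promoter: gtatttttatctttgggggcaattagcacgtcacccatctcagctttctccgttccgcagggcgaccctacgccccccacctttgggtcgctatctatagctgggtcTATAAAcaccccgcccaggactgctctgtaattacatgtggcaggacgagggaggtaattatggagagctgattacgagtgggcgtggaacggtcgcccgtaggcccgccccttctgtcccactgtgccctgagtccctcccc
The motifs searched were a SOX-type site in the spelling ACAAAG, the same site in the spelling ACAATG, a RUNX-type site (TGTGGT), all on both strands, and a TATA box (TATAAA) on the strand of the gene. The SOX-type, RUNX-type and TATA motifs occur in 25.2%, 14% and 7.59% of 32851 promoter windows of this length. The Col10a1 window holds ACAAAG at chr10:34389796-34389801 and TATAAA 32 bases before the start, and the Col11a2 window holds TATAAA at chr17:34038995-34039000. None of these matches overlaps another. None of these letters occurs in the windows of Col9a1, Col9a2, Col11a1 or Col27a1, which says only that they are not in those 250 bases. The RefSeq starts differ from the GENCODE starts for 3 genes: the Col9a2 window (121039316 to 121039565) and the Col27a1 window (63215162 to 63215411) reach into or lie inside the GENCODE gene and are not shown, and the Col11a2 window ends upstream of its GENCODE start.

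Collagen II was the dominant chain at the younger ages. Levels are plate sums over the cells kept, in CPM, averaged over the plates of an age with equal weight. Col2a1 stood at 61180 CPM at postnatal day 3, at 35544, 47341 and 55923 CPM on plates 1, 3 and 4 of 2 months, and at 415, 3362 and 0 CPM on plates 2, 5 and 12 of 24 months. Every plate of 24 months lay below every plate of the other ages. Within single cells, Col2a1 took a median of 4.25% of the gene reads at postnatal day 3 and 1.86% at 2 months, with a highest value of 25.7% in a 2-month cell. At 24 months, 1 cell of 15 gave Col2a1 more than 1% of its reads. Thinned to 50000 reads per cell, Col2a1 was read in 44 of 68 cells of postnatal day 3 (64.7%, exact 95% binomial interval 52.2% to 75.9%), in 82.5% of the 2-month cells (75.5% to 88.1%) and in 3 of 15 cells of 24 months (20%, 4.33% to 48.1%). These intervals cover counting error only, and the share differed among the plates of 2 months, at 53.3%, 90% and 81.2% on plates 1, 3 and 4.

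The collagen IX chains lay at like levels at both younger ages and were nearly without reads at 24 months. Col9a1 stood at 3342 CPM at postnatal day 3 and at 2934, 2572 and 4476 CPM on the 2-month plates, and no read was found in any of the 15 cells of 24 months. Col9a2 stood at 2099 CPM at postnatal day 3 and at 2745, 1818 and 2225 CPM at 2 months, and was likewise at 0 at 24 months. A count of 0 in 15 cells allows a share of up to 20% of cells with a read, and 3 wells of 24 months that did not pass held 3662 reads of Col9a2. Col9a3 stood at 4629 CPM at postnatal day 3, at 2818, 3643 and 4987 CPM at 2 months, and at 0, 557 and 0 CPM at 24 months, where all 5968 reads came from 1 cell of plate 5. For each of the 3 chains the value of postnatal day 3 lay within the range of the 2-month plates. Thinned, the chains were read in 41 to 42 of 68 cells of postnatal day 3 and in 65.6% to 66.9% of the 2-month cells.

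Of the 8 members, Col11a1 was read in the most cells at each age. Col11a1 stood at 3898 CPM at postnatal day 3, at 4447, 3573 and 5120 CPM at 2 months, and at 499, 1259 and 0 CPM at 24 months. Thinned, it was read in 56 of 68 cells (82.4%, 71.2% to 90.5%), in 86.4% of cells (79.9% to 91.4%) and in 5 of 15 cells (33.3%, 11.8% to 61.6%) at the 3 ages in turn. Col11a2 stood at 1969 CPM at postnatal day 3, at 2029, 1482 and 2035 CPM at 2 months, and at 411, 269.98 and 0 CPM at 24 months. It was read in 44 of 68 thinned cells of postnatal day 3, in 70.1% of those of 2 months and in 3 of 15 of 24 months. For both chains the plates of 24 months lay below those of the other ages, and the plate of postnatal day 3 lay within the range of 2 months.

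Collagens X and XXVII were the low members. Their levels at postnatal day 3 lay outside the range of the 2-month plates, for Col10a1 through 1 cell, without which its level of 12.4 CPM lay within it. Col10a1 stood at 386 CPM at postnatal day 3, at 0, 26.8 and 26.2 CPM on plates 1, 3 and 4 of 2 months and at 0 on all plates of 24 months. With all reads used, it was read in 2 cells of postnatal day 3, 4 of 2 months and none of 24 months. Col27a1 stood at 191.8 CPM at postnatal day 3, at 871, 457 and 903 CPM at 2 months, and at 4.84, 0.840 and 0 CPM at 24 months. Thinned, it was read in 33 of 68 cells (48.5%, 36.2% to 61%), in 61.7% of the 2-month cells (53.5% to 69.4%) and in 1 of 15 cells of 24 months. Its highest single cell, at 10314 CPM, was of 2 months. The levels by plate show 7 genes at or above 191.8 CPM at both younger ages, with Col10a1 apart.

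**Figure D1:**
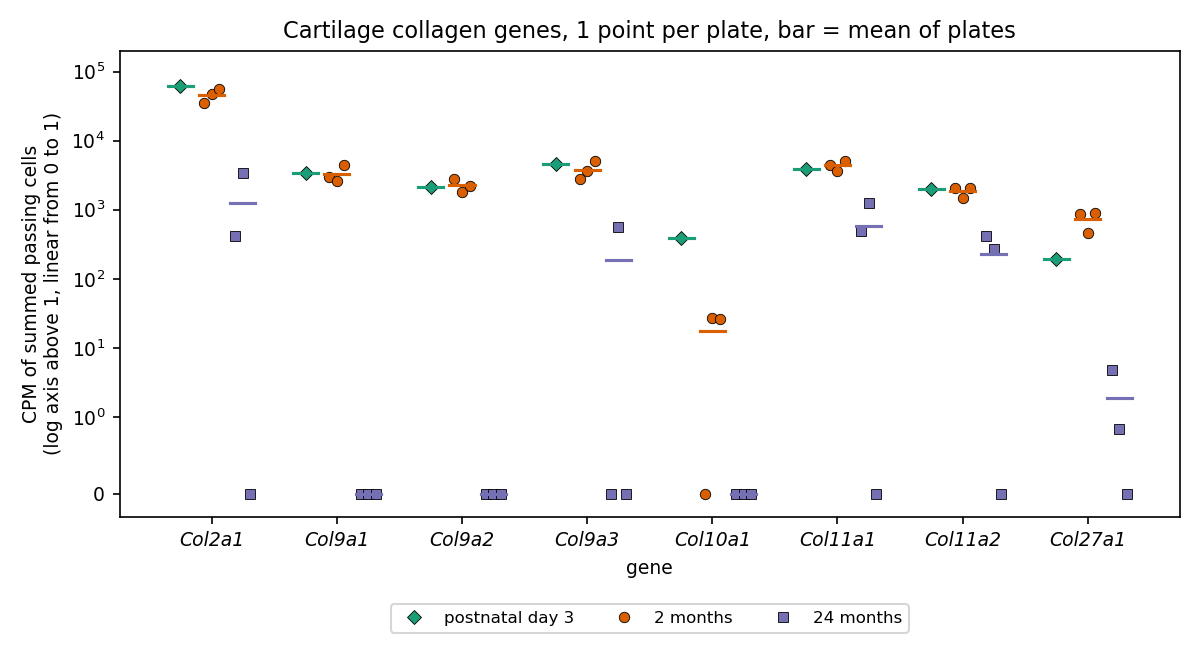
CPM of each cartilage collagen gene (log axis above 1 CPM, linear from 0 to 1), 1 point per plate of postnatal day 3 (diamond), 2 months (circles) and 24 months (squares), with a bar at the mean of the plates. The 24-month points lie below all other points of a gene except at Col10a1, where 1 plate of 2 months is also at 0.

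Genes can be compared with each other only per length, so plate CPM was divided by the length of all exons of the gene in kb. At postnatal day 3 the level per length was 6619 CPM per kb for Col2a1, 1201 for Col9a3, 678 for Col9a2, 660 for Col9a1, 306 for Col11a1, 286.4 for Col11a2, 123.4 for Col10a1 and 14.7 for Col27a1. At 2 months the means were 5006, 990.4, 731, 657, 344 and 268.98 CPM per kb for the first 6 genes in the same order, then 57.1 for Col27a1 and 5.65 for Col10a1. The Col10a1 value of postnatal day 3 came mostly from 1 cell, without which its level fell from 386 to 12.4 CPM. Col2a1 lay above every other member on each plate of both ages, and the collagen IX chains lay above the collagen XI chains. Col9a1 and Col9a2 changed places among the 2-month plates, with a ratio of Col9a1 to Col9a2 of 0.653, 0.864 and 1.23, so their order does not stand beyond the spread, and on plate 1 Col9a2 also lay above Col9a3 (ratio of Col9a3 to Col9a2 0.825). Col9a1 and Col9a2 also changed places when the longest transcript or the coding length was used. The ratio of Col9a3 to Col9a2 on plate 1 was then 0.986 and 1.04, so that order does not stand either. Col11a1 and Col11a2 had a ratio of 1.07 at postnatal day 3 and of 1.18, 1.30 and 1.36 on the 2-month plates. The size of this ratio depended on the length used. With the longest transcript it was 1.56 at postnatal day 3 and 1.73, 1.90 and 1.98 at 2 months. With the coding length it was 1.91 at postnatal day 3 and 2.11, 2.32 and 2.42 at 2 months.

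The proportion of collagen II to collagen XI was lower in the sums of plates 2 and 5 of 24 months, which rested on 3 cells with Col2a1. Per length, Col2a1 exceeded Col11a1 by 21.6 times at postnatal day 3 and by 11.02, 18.3 and 15.1 times on plates 1, 3 and 4 of 2 months. On plates 2 and 5 of 24 months the ratio was 1.15 and 3.68, below the range of the younger plates. These plates held 1 and 2 cells with Col2a1, against 9 to 65 on each plate of the younger ages. The spread of the ratio over single cells of the younger ages was not measured. Whether the ratio is lower within a cell at 24 months was therefore not tested. In the single cell with most Col2a1 the ratio was 12.5, within the range of the younger plates. In the other 2 cells it was 1.15 and 5.62, and both held the osteoblast gene Bglap. On plate 5, a further 2 cells with Bglap held Col11a1 and no Col2a1.

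**Figure D2:**
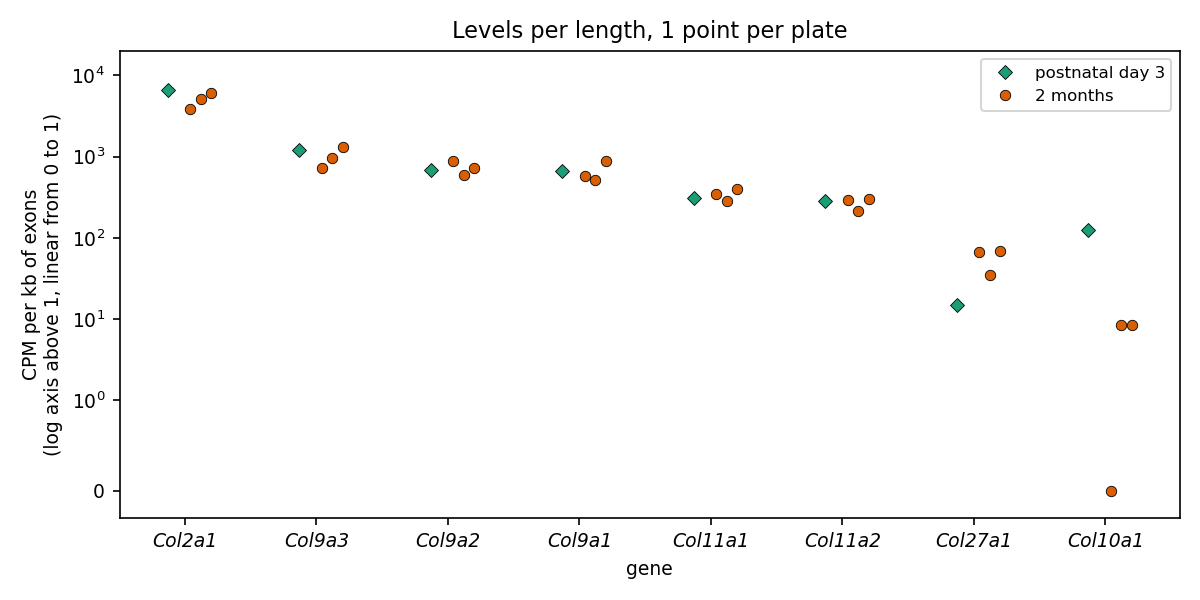
CPM per kb of exons (log axis above 1, linear from 0 to 1) at postnatal day 3 (diamond) and 2 months (circles), 1 point per plate, with genes in the order of their 2-month means. Col2a1 is highest on every plate, the 3 collagen IX chains follow, and Col27a1 and Col10a1 change places between the ages. At postnatal day 3, 1 cell held 96.9% of the Col10a1 reads.

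To ask whether the genes lay in the same cells, the number of the 8 genes with a read was counted in each cell thinned to 50000 reads. The median was 6 at both younger ages and 0 at 24 months. Cells of postnatal day 3 fell into those with nearly all members and those with few: 41 of 68 held 6 to 8, 25 held 0 to 2, and 2 held 3 to 5. Among the 2-month cells, 88 held 6 to 8 members, 31 held 0 to 2, and 35 held 3 to 5. The middle class made up 31.4% of cells on plate 3, 17.4% on plate 4 and 6.67% on plate 1. With all reads used, 30 of the 34 middle cells of 2 months held Col2a1 and 31 held Col11a1, but each collagen IX chain was in 13 of them. At 24 months, 9 of 15 cells held no member and none held more than 4. Among cells of 1000 to 1700 genes, the range that holds 14 of the 15 cells of 24 months, the median was 2 in 9 cells of postnatal day 3, 4 in 69 cells of 2 months and 0 at 24 months.

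**Figure D3:**
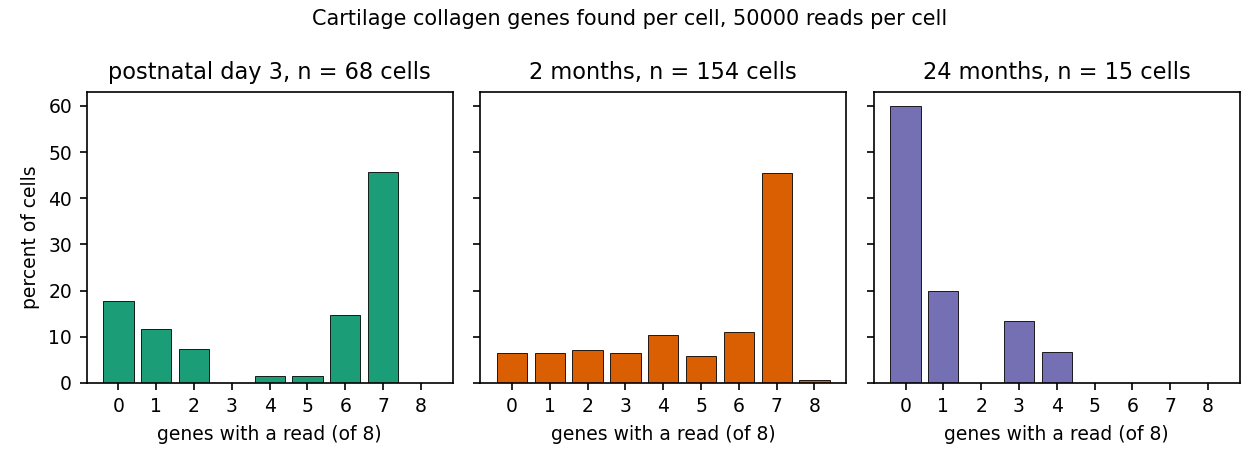
Percent of cells by the number of the 8 genes with a read, after thinning each cell to 50000 reads, at postnatal day 3 (68 cells), 2 months and 24 months (15 cells). Both younger ages peak at 7 genes, the middle is nearly empty at postnatal day 3, and 60% of the 24-month cells hold none.

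The collagen IX chains were seldom read in cells without Col2a1, while Col11a1 was read in many of them. At postnatal day 3, with all reads used, the collagen IX chains were read in 42, 43 and 42 of the 44 cells with Col2a1 and in 0 of the 24 cells without it. At 2 months they were read in 78.6%, 79.4% and 77.9% of the cells with Col2a1 and in 3, 5 and 5 of 23 cells without it. Col11a1 was read in 44 of 44 cells with Col2a1 at postnatal day 3 and in 95.4% of those at 2 months, but also in 12 of 24 cells without it at postnatal day 3, in 10 of 23 at 2 months and in 2 of 12 at 24 months. Its partner Col11a2 was in 1 of the 24 cells of postnatal day 3 without Col2a1 and in 9 of the 23 of 2 months. The 12 cells of postnatal day 3 with Col11a1 and no Col2a1, looked at after these counts were seen, all held Col5a1 and Col5a2, chains of collagen V, which joins collagen I fibrils in bone and connective tissue. Their medians were 2191 CPM of Col11a1, 2236 CPM of Col5a1, 3739 CPM of Col5a2 and 55617 CPM of Col1a1. None of these 12 cells held Cnmd, but 8 held Acan. In the 44 cells with both Col11a1 and Col2a1, the median of Col1a1 was 555 CPM, 42 held Cnmd and 40 held Acan. Collagen V was not particular to the cells with Col11a1 and no Col2a1. Of the 12 cells of postnatal day 3 with neither gene, 11 held Col5a1 and 11 held Col5a2. Their median of Col1a1 was 23350 CPM, none held Cnmd and 2 held Acan.

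**Figure D4:**
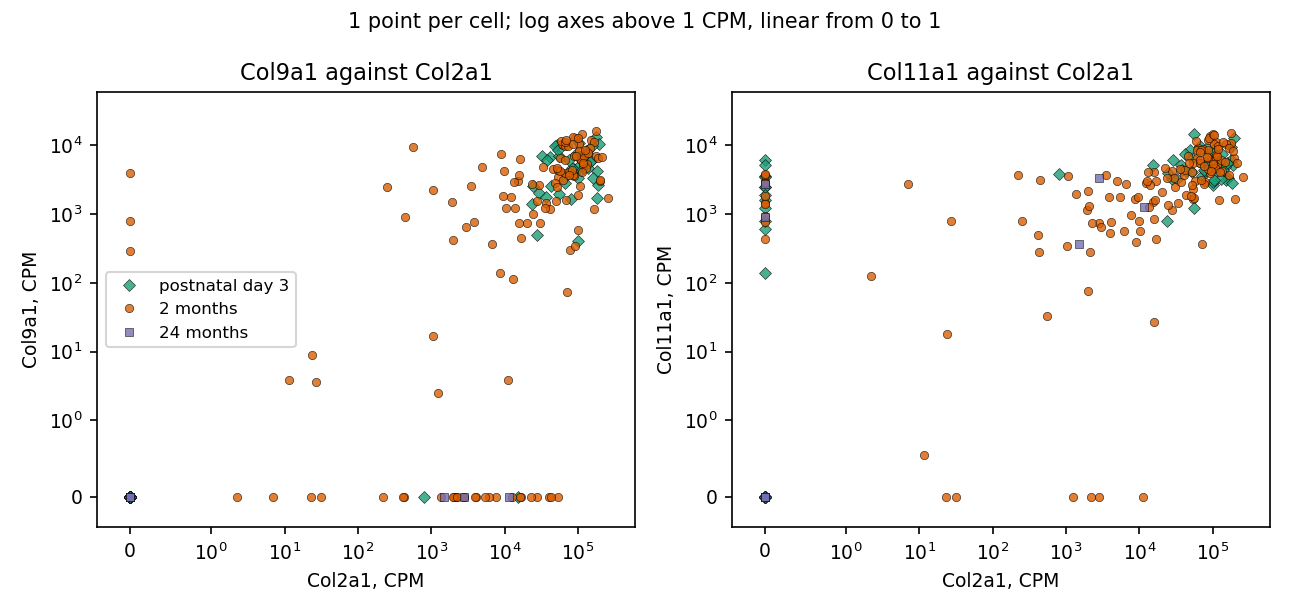
Col9a1 (left) and Col11a1 (right) against Col2a1 in single cells, in CPM (log axes above 1 CPM, linear from 0 to 1), at postnatal day 3 (diamonds), 2 months (circles) and 24 months (squares). Cells at 0 CPM of Col2a1 are nearly empty of Col9a1 but hold up to 6147 CPM of Col11a1.

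In cells with Cnmd, the correlations of Col2a1 with the other chains were higher at 2 months than at postnatal day 3, a difference that was not tested. Over the cells of 2 months, Spearman's rho of Col2a1 was 0.67 with Col9a1, 0.75 with Col9a3 and 0.73 with Col11a1. Over the 42 cells of postnatal day 3 these were 0.27, 0.49 and 0.08. The highest value among the chain pairs of postnatal day 3 was 0.60, between Col9a2 and Col11a2. These are descriptions over cells that share libraries, plates and depth. Over all thinned cells of 2 months, the genes most like the summed 8 members were Cnmd (0.72, and 0.79 over the 68 cells of postnatal day 3), Matn3 (matrilin 3, 0.70 and 0.60), Acan (aggrecan, 0.67 and 0.54), Snorc (0.63 and 0.56), Ucma (0.63 and 0.77), Serpinh1 (the collagen chaperone HSP47, 0.62 and -0.0037), Hapln1 (link protein, 0.60 and 0.67) and Papss2 (a sulfate donor synthase, 0.58 and 0.44). The median over 1593 genes ranked was 0.13.

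Between 24 and 2 months, 7 of the 8 members were lower at 24 months. For a call, the higher of the ages had to reach 10 CPM, their means had to lie 2-fold or more apart, and their plates could not overlap. By this rule 29.7% of 8804 genes were lower at 24 months and 1.56% were higher. The median log2 fold was -4.78 over the 8 members, or -6.59 with genes at 0 set to the level of 3 reads, against -1.56 over all genes. Col2a1 stood at 1259 ± 1833 CPM (SD, n = 3 plates) at 24 months against 46269 ± 10232 CPM at 2 months, a log2 fold of -5.20 with 1 CPM added to both means. The log2 fold was -4.35 for Col9a3, -3.02 for Col11a2, -2.90 for Col11a1 and -8.01 for Col27a1. Col9a1 and Col9a2 were at 0 in the 15 cells, so no fold is given for them. The size of a fold depended on the cells kept. With cells of at least 500 genes the log2 fold of Col27a1 was -3.16 and that of Col9a2 -5.59, and with no cell filter they were -3.07 and -5.70, both still called lower. With cells of at least 500 genes the member median was -5.32, against -0.11 over all genes. Col10a1 was not called, since plate 1 of 2 months held none, and it was called lower without that plate.

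The Col2a1 level of 24 months rested on few cells. A single cell of plate 5 held 74% of the Col2a1 reads of the age, and without it the mean was 261.5 CPM in place of 1259. Without plate 5 the mean was 207.7 CPM, and without plate 12, which held no member in any of its 5 cells, 1889 CPM. All 7 calls were kept in each of these cases. With only cells of at least 2000 genes and 200000 reads, 1 cell of 24 months was left and Col11a1 and Col11a2 were no longer called. Since these ages share no batch, a batch effect cannot be told apart from age, and in summed cells fewer cells of a kind cannot be told apart from less RNA in each.

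The 24-month cells with members were of more than 1 kind. The cell with most Col2a1 (33149 reads, 11459 CPM) also held 5968 reads of Col9a3, 3656 of Col11a1 and 9 of Col27a1, and Col11a2 at 65.3 CPM. With them stood 2093 reads of Acan, 2238 of Sox9 and 41053 of Prg4 (lubricin, a protein of the joint surface), and none of Col1a1 or Cnmd. The other 2 cells with Col2a1, at 2808 and 1500 CPM, held Col11a1 and Col11a2, no collagen IX chain, and 147614 and 115155 CPM of Col1a1. They also held the osteoblast gene Bglap at 1357 and 5440 CPM, and no Acan, Cnmd, Matn3 or Sox9. A further 2 cells of plate 5 held Col11a1 alone, at 2793 and 919 CPM, together with Bglap at 4209 and 146.9 CPM, and 1 cell of plate 2 held Col27a1 alone. Of the 5 cells of 24 months with at least 100 CPM of Bglap, a limit chosen after these cells were seen, 4 held Col11a1, 2 held Col2a1 and none Cnmd. Of 17 such cells at 2 months, 15 held Col11a1, 11 held Col2a1 and 10 held Cnmd.

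Between postnatal day 3 and 2 months, 6 of the 8 members were not called. By the same rule Col10a1 was higher and Col27a1 lower at postnatal day 3, where 28.1% and 10.1% of 9656 genes were higher and lower, so that the count of 2 of 8 was no more than the background of 38.3% in either direction. The log2 fold of the 6 genes not called ran from -0.17 for Col11a1 to 0.40 for Col2a1, and the member median was 0.05 against 0.23 over all genes. With 1 plate of postnatal day 3 there is no spread at that age, and a difference under 2-fold could not be called.

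In the summed cells, the Col10a1 difference was carried by 1 cell. Its log2 fold was 4.37 (386 against 17.7 CPM), and a single cell of postnatal day 3 held 96.9% of the reads. Without that cell the level was 12.4 CPM and the fold turned to -0.49, so that Col10a1 was no longer called. The second cell of postnatal day 3 with Col10a1 had 93214 gene reads, against 1236738 in the first, and weighed little in the sum. At 9838 CPM it still lay above the highest passing cell of 2 months, at 1154 CPM. With cells of at least 500 genes Col10a1 was also not called (383 against 258.3 CPM), where 1 added well of plate 3 of 2 months with 516 genes held 42343 reads of Col10a1. That well held 416200 reads of Spp1, 47176 of Mmp13 and 13352 of Ibsp, which mark late hypertrophic chondrocytes and osteoblasts, and 4 of Col2a1. It held no read of the other hypertrophic markers looked at here, Ihh, Pth1r, Alpl and Panx3.

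The cells with Col10a1 differed between the ages in their other genes. The 2 cells of postnatal day 3 held 22821 and 9838 CPM of Col10a1, 7 of the 8 members each with Col27a1 at 0, and Cnmd, Matn3, Ibsp, Alpl, Pth1r and Panx3, the last 4 being genes of the prehypertrophic and hypertrophic zones. Neither held Prg4 or Mmp13. Spp1 stood at 15834 CPM in the first and 0 in the second, and Ihh at 6.47 and 0 CPM. At 2 months, 2 of the 3 cells of plate 3 held 1154 and 162.4 CPM of Col10a1, all 8 members, and 42433 and 34727 CPM of Prg4, with Ibsp and Spp1 at 0. The third held 3 reads. The cell of plate 4 held 1122 CPM of Col10a1, 19467 CPM of Mmp13, 176871 CPM of Spp1 and 12713 CPM of Ibsp, and of the other members only Col2a1 and Col27a1.

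Col27a1 had a log2 fold of -1.95 (191.8 against 743 ± 248.7 CPM) at postnatal day 3. The fold turned to 0.37 and the call ended among cells of 1000 to 1700 genes, with 9 cells at postnatal day 3. It was called lower in 15 of 16 alternatives. Those that changed only the CPM added or the level limit could not alter this call.

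To separate the share of cartilage cells from the level within them, members were summed over the cells with a read of Cnmd, which is no member. Col2a1 stood at 96075 CPM in those of postnatal day 3 and at 56194, 57831 and 67798 CPM on plates 1, 3 and 4 of 2 months, so the younger plate lay above all of these by less than 2-fold. Col9a3 was also above the 2-month range (7324 CPM against 4441 to 6113), while Col9a1 (5255 against 3283 to 5420), Col9a2 (3308 against 2355 to 4358), Col11a1 (5254 against 4303 to 5921) and Col11a2 (3094 against 1915 to 3242) lay within it. Col10a1 also lay above the 2-month range (611 CPM against 0 to 35.1), with reads in 2 of the 42 cells of postnatal day 3. Col27a1 lay below that range, at 290.0 CPM against 542 to 1391. It was read in the same share of these cells at both ages, 78.6%, with medians over cells of 77.6 and 352 CPM. Col9a1 was read in 87.5% of the 2-month cells with Cnmd and in 41 of the 42 of postnatal day 3. Choosing cells by Acan or Matn3 gave Col27a1 at 250.4 CPM at postnatal day 3 against 491 to 1382 CPM at 2 months.

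**Figure D5:**
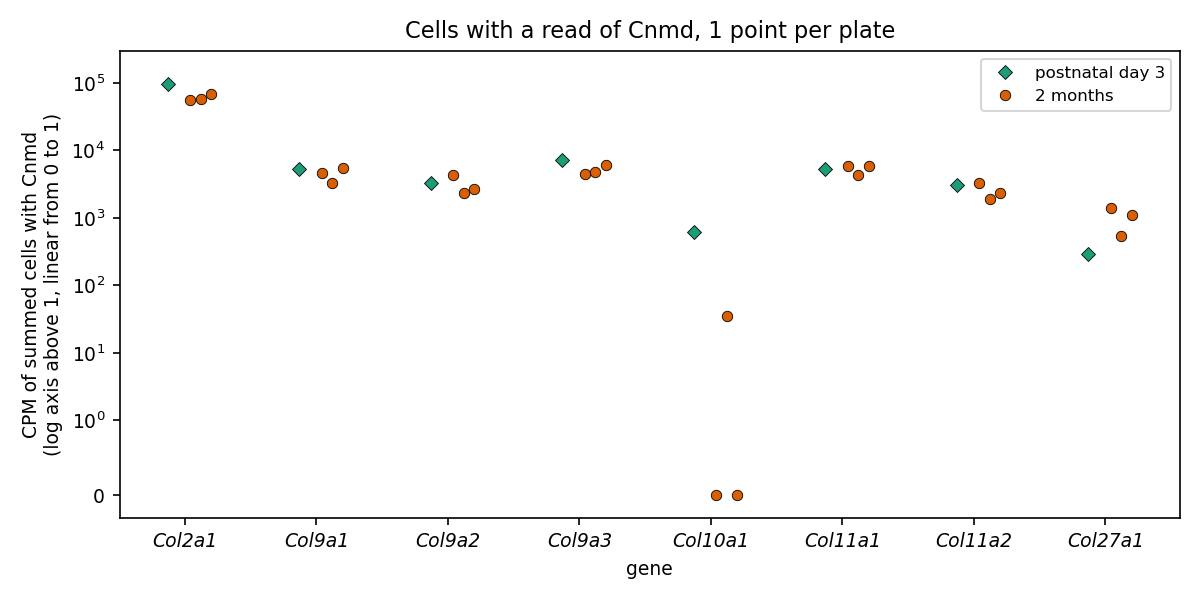
CPM of each member summed over cells with a read of Cnmd (log axis above 1, linear from 0 to 1), 1 point per plate, at postnatal day 3 (diamond, 42 cells) and 2 months (circles, 7, 52 and 53 cells). Col2a1, Col9a3 and Col10a1 of postnatal day 3 lie above the 2-month plates, Col10a1 through 2 cells, and Col27a1 lies below them.

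In the cells without Cnmd, Col2a1 was in 2 of 26 of postnatal day 3 and in 22 of 42 of 2 months. Its median over all 42 of these 2-month cells, with or without a read, was 4.55 CPM. Summed over the same cells, Col2a1 stood at 1032, 13128 and 4823 CPM on plates 1, 3 and 4. In the 26 cells of postnatal day 3 its summed level was 1227 CPM. Col11a1 was in 14 of the 26 and 28 of the 42 cells, with medians over all of them of 371 and 533 CPM. At 2 months, of 43 cells with Prg4, 42 held Col2a1 and 25 held Col9a1, and the median number of members was 5 in these and 7 in the cells without Prg4. At postnatal day 3 the order was the other way: of 24 cells with Prg4, 24 held Col2a1 and 22 held Col9a1, with a median of 7 members, against 2 in the 44 cells without Prg4.

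Between 24 months and postnatal day 3, all 8 members were lower at 24 months, where 53.7% of 9062 genes were lower and 2.62% higher. The log2 fold was -5.60 for Col2a1, -4.63 for Col9a3, -2.73 for Col11a1, -3.11 for Col11a2 and -6.06 for Col27a1. Col9a1, Col9a2 and Col10a1 were at 0 in the 15 cells, and the Col10a1 level of postnatal day 3 rested on 1 cell (386 CPM with it, 12.4 CPM without). With cells of at least 500 genes the log2 fold of Col27a1 was -1.43 and that of Col9a2 -5.80, and with no cell filter they were -1.39 and -5.96. The folds of Col2a1, Col9a3, Col11a1 and Col11a2 with cells of at least 500 genes were -6.20, -5.50, -3.59 and -3.30. Both comparisons with 24 months share its cells. Plates 2, 9 and 12 carry the same batch number, and within it all 8 members were again lower, beside 61.9% of all genes tested. The member median was -5.83 against -1.94 over all genes, with cells of at least 500 genes -5.65 against -0.23, and within the batch -8.40 against -3.51.

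Other genes of cartilage matrix and of collagen assembly were read from lists. Of 14 non-collagen genes of cartilage matrix, 11 were lower at 24 than at 2 months and none higher, beside 29.7% and 1.56% of all genes. Cnmd, Matn3, Hapln1, Matn4, Snorc, Epyc and Scrg1 were at 0 there, from 5797, 3279, 499.9, 158.7, 262.2, 234.1 and 322 CPM at 2 months, and Acan stood at 65.1 against 1545 CPM. Chad (chondroadherin) had a log2 fold of -2.53. Comp and Cytl1 were not called, with 5368 and 14538 CPM at 24 months against 9277 and 12072 CPM at 2 months. Between postnatal day 3 and 2 months 7 of the 14 were lower at the younger age, beside 10.1% of all genes, among them Chad (951 against 11032 CPM), Cytl1 (847 against 12072 CPM) and Comp (3770 against 9277 CPM). Matn1 (matrilin 1) was higher (628 against 97.3 CPM), beside 28.1% of all genes. Of the 8 collagens, 2 were called in that comparison.

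Transcription factors known to act on these collagen genes included Sox9, the master factor of chondrocytes, and its partners Sox5 and Sox6. Of 8 genes, 7 were tested. Sox9 was lower at 24 months than at 2 months (log2 fold -2.56, from 1240 CPM), as were Runx3 (0 against 576 CPM) and Foxa3 (0 against 31.2 CPM), which made 3 of 7 beside 29.7% of all genes. Sox5 (365 against 287.8 CPM), Sox6 (77.9 against 41.6 CPM), Runx2 (698 against 123.5 CPM) and Mef2c (332 against 94.1 CPM) were not called. At postnatal day 3, Sox9 (381 CPM), Runx3 (68.3 CPM) and Runx2 (23.6 CPM) were lower than at 2 months, beside 10.1% of all genes, and none was higher.

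Of 20 genes for procollagen folding and modification in the endoplasmic reticulum, 9 were lower at 24 than at 2 months and none higher, beside 29.7% of all genes, with a median log2 fold of -1.36 against -1.56 over all genes. They were P4hb (1038 against 2142 CPM), Serpinh1 (345 against 1406 CPM), the telopeptide lysyl hydroxylase Plod2 (76.6 against 627 CPM), Plod1, Plod3, P3h4, Fkbp10, Fkbp14 and P4ha3. Between postnatal day 3 and 2 months, 6 of the 20 were higher at the younger age (P4ha2, P4ha3, P3h3, Plod1, Plod3 and Colgalt1) and 3 lower (P3h2, Plod2 and Colgalt2), shares near the 28.1% and 10.1% of all genes. Of 11 genes of procollagen cleavage and cross-linking, 9 were tested in each comparison with 2 months. The lysyl oxidases Loxl2 (0 against 94.2 CPM) and Loxl3 (72.95 against 353 CPM) were lower at 24 than at 2 months, beside 29.7% of all genes. At postnatal day 3, Lox, Loxl1, Loxl3 and Loxl4 were higher than at 2 months and Pcolce2 was lower, beside 28.1% and 10.1% of all genes.

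Most collagens of bone and connective tissue were higher at postnatal day 3 than at 2 months. Of 7 genes of collagens I, III, V and XXIV, 6 were higher at postnatal day 3 than at 2 months, beside 28.1% of all genes. Col1a1 stood at 25382 against 7125 CPM, Col3a1 at 14663 against 343 CPM and Col5a1 at 911 against 58.5 CPM. At 24 months Col5a1 (534 CPM) was higher and Col24a1 (0 against 22.5 CPM) lower than at 2 months, and Col1a1 (21883 CPM) was not called. With these genes, the summed level of 8 fibroblast markers was 2900 CPM at postnatal day 3, 819 to 4418 CPM at 2 months and 4783 to 15226 CPM at 24 months, most of it Dcn at 2 and 24 months. Of the 8, 6 were tested between postnatal day 3 and 2 months, and 5 were higher at postnatal day 3, beside 28.1% of all genes. Among them were Mfap4 (683 against 0.022 CPM), Col14a1 (452 against 0.013 CPM) and Mfap5 (266.8 against 0.18 CPM), with Dpt and Pdgfra. At 24 months 5 of the 8 were at 0 (Col14a1, Clec3b, Pi16, Mfap5 and Mfap4), and Dcn was higher than at 2 months. The part of these markers in the result was not tested. Markers of marrow stroma (8 genes) summed to 530 CPM, 0.243 to 383 CPM and 4759 to 26836 CPM in the same order, and those of osteoblasts (8 genes) to 845 CPM, 4156 to 8563 CPM and 1897 to 10269 CPM.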

How the data were processed

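The table used was deposited by the authors as RSEM expected counts per gene symbol and cell. Per the submitters' processing notes, bcl2fastq 2.18, STAR 2.4 and RSEM 1.2.21 were used with GRCm38.p6, and the annotation release is not given in the sources used here. Expected counts were rounded to whole numbers. The table holds 55604 gene rows, of which 28 are named by a number and are not reported, and 92 spike-in rows, which were kept out of all totals. Each of 670 columns was matched to a sample through the plate, well and index in its name, and 1 further column was left unused.

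Plate sums of the cells kept were scaled to CPM, and log2 folds carry 1 CPM added to both means. Since no animal is labelled, an age is 1 sample, no test was made, and a gene was called by the size rule given with the results. For detection each cell was thinned to 50000 reads at random. Shares carry exact (Clopper-Pearson) 95% intervals, and a 0 is bounded by 3 counts. Exon, transcript and coding lengths came from GENCODE annotation of GRCm38. The rule was tested on simulated data, drawn with counting error only and without spread between plates or cells. How the rule behaves under such spread was not tested.

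Named are all 8 members, in each list the genes called or up to 4 of the highest level at 2 months, and the 8 genes most like the summed members among those read in at least 20% of 2-month cells. The members and lists were chosen with earlier results of these data known. Cells with Col11a1 but no Col2a1, cells with Bglap, and the wells and cells singled out were chosen after their values were seen. Alternatives changed the cell filter, the summing, the scaling (TMM, edgeR 4.0.16 in R 4.3.3), the CPM added, the level limit, rounding, depth and the plates used. The remaining computation was done in Python 3.11.15 (numpy 2.4.6; pandas 2.3.3), with intervals from scipy 1.17.1 and plots from matplotlib 3.10.9.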

Additional observations from a re-analysis of the deposited data

Results flagged for a closer look

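The 433 wells that did not pass were used in no comparison, and members were read in some of them above the 3 wells set as a floor. Of the 27 such wells of postnatal day 3, 11 held Col2a1, 6 Col9a1, 4 Col11a1 and 4 Col11a2. At 2 months, 27 of these wells held Col2a1, 26 Col11a1, 22 Col11a2, 17 Col9a3, 14 Col27a1, 13 Col9a1, 12 Col9a2 and 4 Col10a1, the last with 42343 of its 42351 reads in 1 well. At 24 months 10 held Col2a1, 8 Col11a1, 7 Col11a2 and 7 Col27a1, while Col9a1 and Col10a1 had no read, so up to 1.10% of these wells could hold one. The median of gene reads in these wells was 2506, 33428 and 3337 for the ages in rising order.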

How the results depend on the processing

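Over the alternatives, 6 to 8 members were lower at 24 than at 2 months and 6 to 8 lower than at postnatal day 3, while the share of all genes called lower ranged from 14.3% to 70% and from 36% to 81%. Leaving out each plate gave 7 to 8 and 8 members. Between postnatal day 3 and 2 months, 2 members were called in each plate left out, and 1 with cells of at least 500 genes, with no cell filter and without the postnatal day 3 cell of most Col10a1, where the Col10a1 fold was -0.49. The share of all genes called there ranged from 7.49% to 24.1% lower and 18.2% to 38.7% higher. Other folds that turned were those of Col11a2 at 24 months with cells of at least 2000 genes and 200000 reads (0.067 against 2 months and 0.65 against postnatal day 3, 1 cell left) and of Col27a1 at postnatal day 3 with cells of 1000 to 1700 genes (0.37), where Col9a3 was called higher. The median members per cell at 24 months was 3 in that single cell and 0 to 1 without each plate in turn (1 without plate 12), and at postnatal day 3 it was 2 with cells of 1000 to 1700 genes. The cause was not tested. TMM scaling moved the median log2 fold of all genes from -1.56 to -1.92 for 24 against 2 months, from 0.23 to 0.10 for postnatal day 3 against 2 months and from -1.94 to -2.05 for 24 months against postnatal day 3, and changed no member's call. The cell filter moved it more: for 24 against 2 months it was -0.11 at a minimum of 500 genes, -0.024 over all wells and -4.69 under the strictest filter (2000 genes, 200000 reads), where the member median was -5.32, -5.36 and -7.31. Against postnatal day 3 the same 3 filters gave -0.23, -0.16 and -4.71 over all genes and -5.65, -5.77 and -8.04 over the members. Restricting genes per cell and leaving out single cells were chosen after seeing the data. No paired analysis was possible because plates of different ages share a label only in batch 3 (plates 2 and 12 with plate 9), a single batch, whose values stand with the results. With 15 cells of 24 months, a share under 20% cannot be told from 0.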

Other observations

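Receptors of collagen and proteases that cleave cartilage matrix were also read. Of 7 receptor genes, 4 were tested between 24 and 2 months. The collagen II integrin chain Itga10 alone was lower at 24 months (0.341 against 49.7 CPM), beside 29.7% of all genes. Between postnatal day 3 and 2 months, 5 were tested. Itga1 (49.98 against 9.77 CPM) and Itga11 (132.8 against 42.4 CPM), which bind fibrillar and network collagens, were higher at postnatal day 3, beside 28.1% of all genes. Ddr2, a kinase receptor for collagen, was not called in either comparison (183.4, 199.7 and 316 CPM at postnatal day 3, 2 months and 24 months).

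Of 8 protease genes, 6 were tested in each comparison with 2 months. None was called between 24 and 2 months, beside the 31.2% of all genes called in either direction. The collagenase gene Mmp13 was at 0 at postnatal day 3 against 460 CPM at 2 months, while Mmp2 (2205 against 303 CPM) and Mmp14 (951 against 171.3 CPM) were higher, beside 10.1% of all genes lower and 28.1% higher. Of 7 markers of hypertrophic chondrocytes other than Col10a1, 6 were tested between postnatal day 3 and 2 months. At postnatal day 3, 5 were lower, beside 10.1% of all genes. Among them were Spp1 (259.5 against 5497 CPM), Ibsp (329 against 4744 CPM) and Panx3 (37.2 against 381 CPM).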
